A study of Mus musculus with 48 samples.

Results

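Scavenger receptors and markers of tissue macrophages were followed here as a group of 10 genes among the 24411 genes of the count table: Marco, Msr1, Cd163, Stab1, Cd5l, Scarb1, Olr1, Colec12, Folr2 and Lyve1. They were chosen by gene symbol, not by a threshold on these values but with earlier results of these data known, and all 10 are in the table. Scavenger receptors are surface proteins with which macrophages take up oxidised lipoproteins, bacteria, inhaled particles and debris of dead cells. Several of them also serve as markers, since alveolar macrophages of the healthy airspace carry MARCO, while macrophages of the lung interstitium and other tissues carry the endocytic receptor stabilin-1 (Stab1), the folate receptor FOLR2, the haemoglobin-haptoglobin receptor CD163 and the hyaluronan receptor LYVE1. Cd5l differs from the rest in encoding a secreted macrophage protein, also called AIM, which binds lipids and limits cell death.

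RNA was sequenced from airspace macrophages lavaged from the lungs of 24 male mice, 12 without Siglec-F (KO) and 12 wild type (WT). Siglec-F is a lectin found on alveolar macrophages and eosinophils. In each genotype 9 mice had been given bleomycin intratracheally (2.5 units/kg) 7, 14 or 21 days before lavage, and 3 mice had been given saline and are labelled naive, day 0. The 8 groups hold 3 mice each, and the comparisons ask how these macrophages change after lung injury and whether Siglec-F alters them. The labels do not name the strain, the age, the making of the KO allele or a step that separated macrophages from other lavage cells. They also do not say whether mice of a group were handled apart, so p-values measure the spread between these mice.

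Siglecf held 0 to 25 counts in each KO library, against 2631 to 20368 in each WT library, as the genotype labels require. Library totals ran from 24877053 to 47457085 counts. On the first principal component (51.5% of variance) the 6 naive mice lay between -98.0 and -89.0, while the bleomycin mice ranged from -23.8 to 58.9; KO day 14 mice 2 and 3 (3.50 and -19.0) and KO day 21 mouse 1 (-23.8) lay nearest the naive mice. Macrophage markers were high in every library, with Adgre1 at 356 to 604 CPM (read counts scaled to a common library size with TMM factors), Cd68 at 1150 to 1940 and Lyz2 at 14300 to 40400. Endothelial cells also use Stab1, Lyve1 and Olr1, but of their defining markers Emcn and Cldn5 were at 0 in all 24 mice, and Cdh5 and Tek reached at most 0.546 and 0.207 CPM. Others were present at low levels: Kdr averaged 3.78 ± 1.68 CPM in KO day 7 mice and 3.75 ± 3.27 in WT day 7 mice and was at 0 in all naive mice, Tie1 reached at most 0.864 CPM and Pecam1 at most 2.48. The summed level of the 12 endothelial markers nevertheless ran from 156 to 424 CPM after bleomycin and from 78.9 to 142 in naive mice. Pdpn carried that difference (52.9 to 350 and 8.89 to 20.0 CPM), and Vwf, at 58.7 to 143 CPM, was the most abundant of the 12 in naive mice. Of 8 endothelial markers tested, 4 rose and 1 fell at day 7 in KO mice and 3 rose and 1 fell in WT mice, the fall in WT mice being lost without WT naive mouse 2 or 3 or WT day 7 mouse 1 or 3 (2 fell without WT day 7 mouse 2); the part of such cells in the Stab1 values was not tested. The 10 fibroblast markers summed to 1.70 to 5.11 CPM. In such bulk samples fewer cells of a type and less RNA per cell cannot be told apart.

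The promoters of 3 genes that were near absent from naive airspaces and appeared after bleomycin are shown with that of Olr1, which moved the other way at day 7. Each is the 250 bases before the RefSeq start (GRCm38.p6, the build of mm10), read 5′ to 3′ on the gene's strand: Stab1 at chr14:31168642-31168891 (minus), Cd5l at chr3:87357631-87357880 (plus), Folr2 at chr7:101845332-101845581 (minus, the downstream of 2 annotated starts) and Olr1 at chr6:129507166-129507415 (minus). Capitals mark matches, on either strand, to the core site of the macrophage factor PU.1 (GAGGAA, read as TTCCTC on the other strand), the hexamer of nuclear receptors (AGGTCA) and the AP-1 site (TGANTCA).
Stab1: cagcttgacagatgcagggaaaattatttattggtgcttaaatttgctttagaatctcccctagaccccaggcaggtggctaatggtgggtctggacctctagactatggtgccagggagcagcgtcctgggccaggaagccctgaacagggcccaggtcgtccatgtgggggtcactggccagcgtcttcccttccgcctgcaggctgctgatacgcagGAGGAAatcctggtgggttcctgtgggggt
Cd5l: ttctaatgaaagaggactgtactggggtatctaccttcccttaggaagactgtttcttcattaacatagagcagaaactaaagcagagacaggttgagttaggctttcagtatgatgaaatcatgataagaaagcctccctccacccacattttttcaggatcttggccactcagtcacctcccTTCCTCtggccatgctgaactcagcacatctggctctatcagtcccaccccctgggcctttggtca
Folr2: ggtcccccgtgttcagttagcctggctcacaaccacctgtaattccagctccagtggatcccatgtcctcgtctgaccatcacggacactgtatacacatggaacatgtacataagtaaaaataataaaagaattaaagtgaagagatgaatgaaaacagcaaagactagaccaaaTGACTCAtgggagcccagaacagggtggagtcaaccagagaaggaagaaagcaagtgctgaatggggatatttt
Olr1: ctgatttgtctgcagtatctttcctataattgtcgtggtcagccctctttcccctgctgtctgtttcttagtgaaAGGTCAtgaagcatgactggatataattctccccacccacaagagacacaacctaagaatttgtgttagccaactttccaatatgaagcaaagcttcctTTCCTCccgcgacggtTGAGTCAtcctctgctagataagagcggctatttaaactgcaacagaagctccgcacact
The PU.1 core began 30 bases before the Stab1 start, 66 before that of Cd5l and 76 before that of Olr1, and it was also found 146 bases before the start of Marco. Olr1 held the nuclear receptor hexamer at 175 bases and an AP-1 site at 60, and Folr2 an AP-1 site at 74. No 2 of these matches overlapped. The window at the upstream start of Folr2, which is not shown, held no match to any of these motifs. Of 32536 promoters of this length 23.4% held the PU.1 core, 14.0% the hexamer and 6.73% the AP-1 site. The core of the MAF element (TGCTGAC), which 3.79% of promoters held, was not in the windows of these 4 genes, of Marco or of Cd163, nor in the upstream window of Folr2. A match of letters is a description and shows no binding.

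Marco, which binds bacteria and inhaled particles, had the highest level per kilobase (kb) of exons in all 8 groups. In CPM per kb it averaged 395 ± 142 in KO naive mice and 285 ± 75.0 in WT naive mice (SD, n = 3 each). Olr1, the receptor of oxidised low-density lipoprotein, came next in naive mice with 87.8 ± 2.71 in KO and 87.2 ± 11.2 in WT. Scarb1, the receptor of high-density lipoprotein, followed with 26.4 ± 1.82 in KO and 25.4 ± 1.66 in WT. The ranges of these 3 genes did not overlap in naive mice, while those of the next 2, Colec12 (3.34 ± 0.396 in KO, 3.05 ± 0.247 in WT) and Msr1 (2.45 ± 1.32 in KO, 2.55 ± 0.874 in WT), did. The order of Colec12 and Msr1 also depended on the gene length used, since with the longest transcript in place of the exon union WT naive mice had 3.32 for Colec12 and 4.45 for Msr1, and 69.8 for Scarb1. Stab1, Lyve1, Folr2, Cd163 and Cd5l were all under 0.1 CPM per kb on average in both naive groups.

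**Figure D1:**
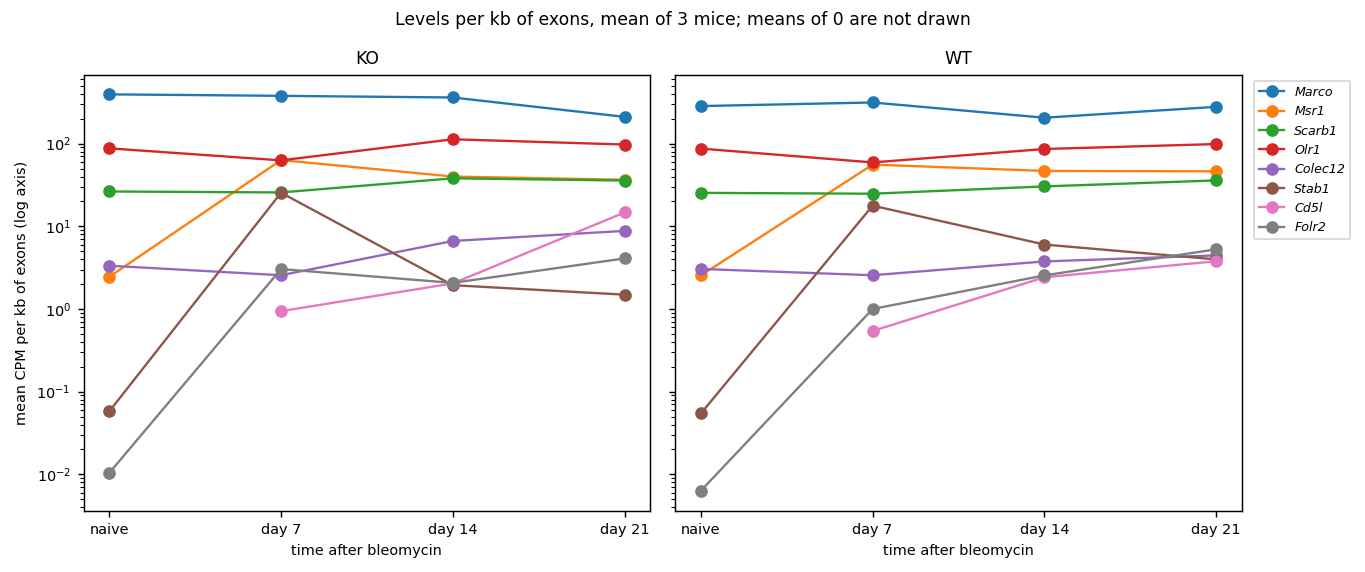
Mean level of 8 genes in CPM per kb of exons (log axis) by time after bleomycin, KO in the left panel and WT in the right, mean of 3 mice per point. Marco stays at the top in both genotypes, at 395 in KO naive and 285 in WT naive mice, while Msr1 and Stab1 are far higher at day 7 than in naive mice.

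After bleomycin Msr1 was far above Colec12. At day 7 it averaged 63.3 ± 12.4 CPM per kb in KO mice and 55.8 ± 1.51 in WT mice, within the range of Olr1 (62.8 ± 12.6 in KO, 59.3 ± 9.51 in WT). Stab1, at 25.5 ± 10.3 in KO and 17.8 ± 2.21 in WT, was then close to Scarb1 (25.7 ± 4.98 in KO, 24.8 ± 0.665 in WT), and in KO mice their ranges overlapped. These places depend on the gene length: by the longest transcript, Msr1 had 110 ± 21.7 in KO mice and 97.4 ± 2.63 in WT mice, above the range of Olr1 (at most 72.9), and Stab1 had 32.8 ± 13.3 and 22.9 ± 2.85, below the range of Scarb1 (61.1 to 86.3 in KO, 66.9 to 70.3 in WT). By day 21 Stab1 was down to 1.49 ± 0.940 in KO mice and 3.98 ± 1.15 in WT mice, among Cd5l, Folr2 and Colec12 in WT mice.

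Stab1 and Msr1 rose after bleomycin on all 3 days in both genotypes, and so did Folr2 by edgeR but not by limma-voom. Of the 10 genes, 8 passed the filter on low counts. Stab1, Cd5l and Folr2 were at or under about 1 CPM in naive mice, and Cd5l and Folr2 passed the filter through the bleomycin groups. Stab1 had enough counts in KO naive mice (28, 30 and 18) to pass without them, but only 4 in WT naive mouse 2. The counts and medians below, and the p-values of these 3 genes against naive mice, are therefore descriptions from which nothing is read. In KO mice 4 of the 8 rose and 1 fell at day 7, 6 rose at day 14 and 6 at day 21, and none fell on the later days; 34.1%, 16.9% and 21.9% of the 12634 tested genes were called on those days by edgeR's quasi-likelihood test (adjusted p under 0.05). In WT mice 3 rose and 1 fell at day 7, 4 rose at day 14 and 5 at day 21, where 35.5%, 32.1% and 32.5% of genes were called. The median log2 fold change of the 8 genes was 2.33, 2.51 and 2.65 in KO mice and 2.29, 2.25 and 2.36 in WT mice, and did not change with Cd5l set at its lower bound. Over all tested genes the medians lay between -0.0028 and 0.022. The comparisons of each genotype share its 3 naive mice.

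Markers of other cell types differed in the same comparisons. Of 14 tested markers of recruited monocytes, 10 rose and 2 fell at day 7 in KO mice and likewise in WT mice, and their summed level was 6220 to 9910 CPM at day 7 against 514 to 882 in naive KO mice, and 4740 to 8650 against 753 to 1410 in WT mice. Without KO naive mouse 1, KO day 7 mouse 2 or, in WT mice, WT day 7 mouse 2, 1 of these markers fell in place of 2. Of 10 dendritic cell markers 6 rose in KO mice and 8 in WT mice and 1 fell in each, with sums of 15.5 to 21.1 CPM at day 7 against 4.92 to 6.04 in naive KO mice, and 16.7 to 22.7 against 2.95 to 4.64 in WT mice. Of 10 T and NK cell markers 7 rose in KO mice and 9 in WT mice and 1 fell in each, but their sums were lower at day 7, at 102 to 127 CPM against 303 to 401 in naive KO mice, and 167 to 168 against 401 to 448 in WT mice. Of 12 alveolar epithelial markers 2 rose and 1 fell in KO mice and 7 rose and 2 fell in WT mice; leaving out 1 mouse, 1 rose without KO naive mouse 1 or 3, 1 without WT day 7 mouse 3 and 4 without WT naive mouse 3, and 1 fell in WT mice without WT naive mouse 2 or 3 or WT day 7 mouse 1 or 2. The epithelial sums at day 7 were 140 to 156 CPM against 204 to 288 in naive KO mice and 130 to 291 against 246 to 282 in WT mice. Neutrophil markers summed to 133 to 152 CPM at day 7 against 107 to 147 in naive KO mice, and 151 to 182 against 116 to 160 in WT mice, and B cell markers to at most 1.48 CPM in any day 7 mouse. The part of these cells in the receptor values was not tested.

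**Figure D2:**
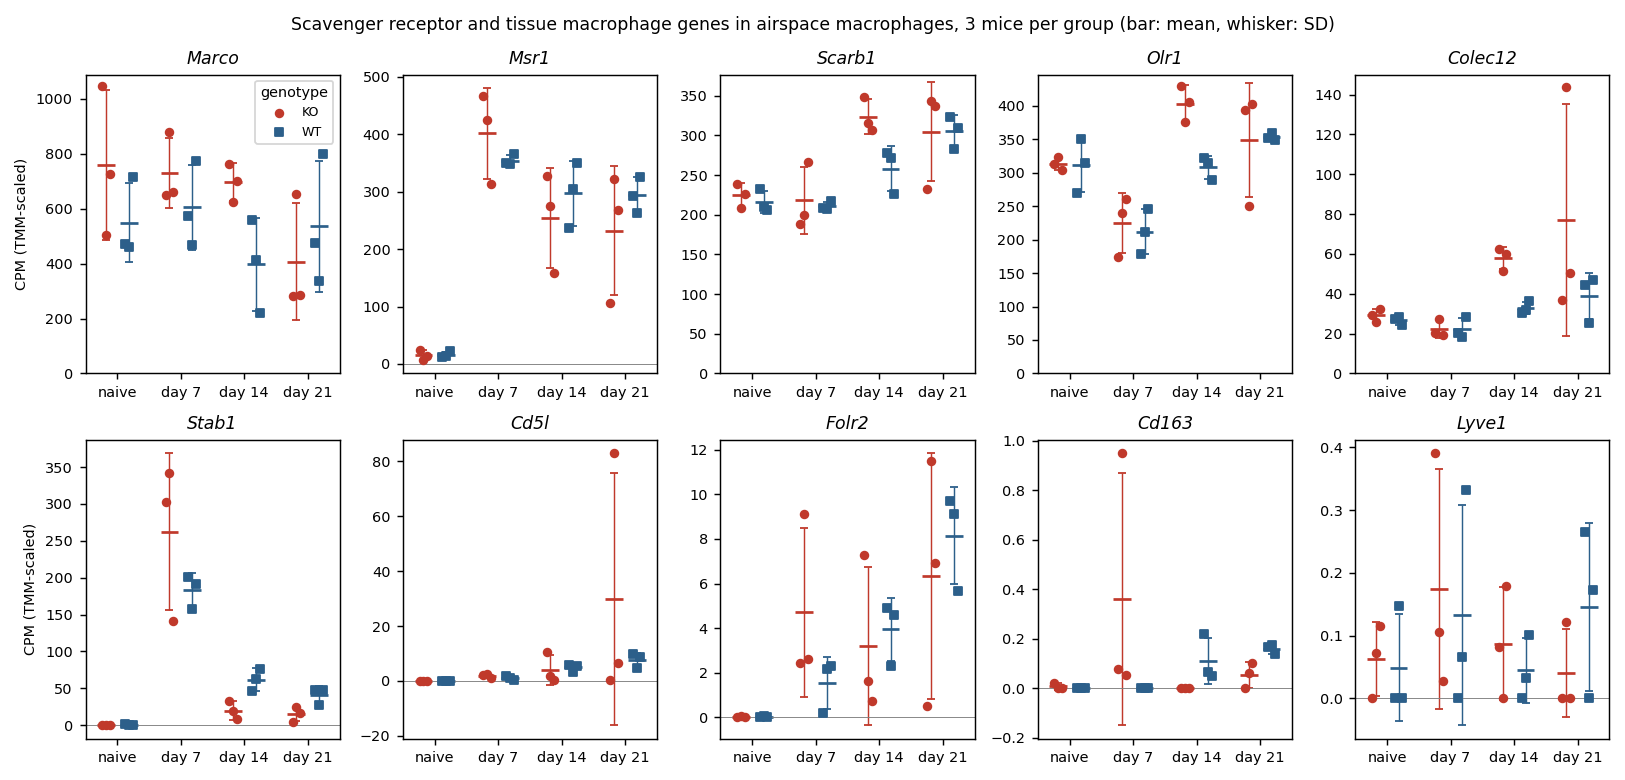
CPM of each of the 10 genes (a panel each, with axes of their own) by time, with KO mice as red circles left of WT mice as blue squares; bars are means and whiskers SD of 3 mice. Msr1, Stab1, Cd5l and Folr2 are near 0 or low in naive mice, Marco overlaps across times, and KO day 21 mouse 2 stands apart for Cd5l (82.9 CPM) and Colec12 (144 CPM).

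Stab1 (ENSMUSG00000042286.13, chr14:31139013-31168641, minus strand) encodes stabilin-1, which takes up acetylated lipoproteins and the matrix protein SPARC. In KO mice it had 0.644, 0.725 and 0.415 CPM when naive, 302, 342 and 141 at day 7, 32.5, 19.4 and 8.05 at day 14, and 4.93, 24.1 and 16.9 at day 21. In WT mice it had 1.05, 0.118 and 0.515 CPM when naive, 201, 157 and 191 at day 7, 46.0, 62.9 and 76.9 at day 14, and 47.8, 27.3 and 47.8 at day 21. Every bleomycin mouse lay above every naive mouse, and every day 7 mouse above every later one. Against naive mice the log2 fold change in KO mice on days 7, 14 and 21 was 8.78 (SE 0.69, adjusted p = 1.35e-08), 5.06 (SE 0.64, 9.04e-06) and 4.68 (SE 0.63, 1.71e-05). In WT mice it was 8.43 (SE 0.70, adjusted p = 2.39e-08), 6.87 (SE 0.68, 2.56e-07) and 6.27 (SE 0.67, 7.42e-07), and 9.03, 7.46 and 6.87 without WT naive mouse 1. An exon of Stab1 lies within the span of Nt5dc2 on the opposite strand, and whether counting used strand is not given. Nt5dc2 averaged 36.2 ± 9.48 CPM at day 7 against 3.27 ± 0.704 in naive KO mice, and 29.5 ± 7.32 against 3.37 ± 0.678 in WT mice, and its part in the Stab1 values was not tested. At day 14 it averaged 5.63 ± 2.60 CPM in KO mice and 10.1 ± 3.09 in WT mice, with overlap, and at day 21 it was at 3.30 to 6.99 CPM in KO mice and 11.6 to 13.8 in WT mice, without overlap.

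Msr1 (ENSMUSG00000025044.16, chr8:39581685-39642673, minus strand), a receptor of acetylated and oxidised lipoproteins, was still raised at day 21. Its level in KO mice was 24.4, 7.68 and 14.5 CPM when naive, 466, 425 and 313 at day 7, 328, 275 and 158 at day 14, and 106, 322 and 269 at day 21. WT mice had 11.6, 14.6 and 22.3 CPM when naive, 349, 348 and 365 at day 7, 237, 304 and 349 at day 14, and 293, 262 and 326 at day 21. All 18 bleomycin mice lay above all 6 naive mice. The log2 fold change was 4.69 (SE 0.42), 4.03 (SE 0.41) and 3.90 (SE 0.41) on the 3 days in KO mice and 4.44 (SE 0.42), 4.19 (SE 0.42) and 4.17 (SE 0.41) in WT mice, with adjusted p-values from 6.41e-08 to 9.19e-07.

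Marco (ENSMUSG00000026390.7, chr1:120474538-120505024, minus strand) passed the test in none of the bleomycin comparisons. KO mice had 1046, 504 and 728 CPM when naive, 650, 878 and 662 at day 7, 764, 626 and 701 at day 14, and 282, 652 and 286 at day 21. WT mice had 472, 460 and 716 CPM when naive, 574, 468 and 774 at day 7, 558, 412 and 220 at day 14, and 473.3, 335 and 801 at day 21. Naive and bleomycin mice overlapped on every day in both genotypes. The log2 fold change closest to the threshold was -0.90 (SE 0.37, adjusted p = 0.0836) at day 21 in KO mice, with a 95% interval of -1.66 to -0.14. Without KO day 21 mouse 2, the mouse at 652 CPM, Marco was called lower there. In the other 5 comparisons the intervals lay within -1.23 to 0.90 and included 0.

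Colec12, on chromosome 18, encodes a collectin of the plasma membrane that binds oxidised lipoproteins and microbial sugars. Levels in KO mice were 29.1, 25.7 and 32.6 CPM when naive, 20.2, 27.4 and 19.4 at day 7, 62.5, 51.7 and 59.8 at day 14, and 36.8, 144 and 50.2 at day 21. Levels in WT mice were 27.2, 28.5 and 24.3 CPM when naive, 20.6, 18.3 and 28.3 at day 7, 30.5, 31.9 and 36.2 at day 14, and 44.4, 25.5 and 46.7 at day 21. All KO mice of days 14 and 21 lay above the KO naive mice, and so did the WT mice of day 14 above the WT naive mice. The rise in KO mice was 0.99 (SE 0.33, adjusted p = 0.0448) at day 14 and 1.40 (SE 0.34, 0.00481) at day 21 on the log2 scale. The day 14 call lay close to the threshold and was lost without any 1 of its 6 mice (adjusted p 0.0699 to 0.149), while its value stayed between 0.91 and 1.08. The day 21 value rests on KO day 21 mouse 2, without which it was 0.58 (adjusted p = 0.0925). In WT mice the differences were -0.25, 0.30 and 0.55, and none passed the test (adjusted p 0.221 to 0.593).

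**Figure D3:**
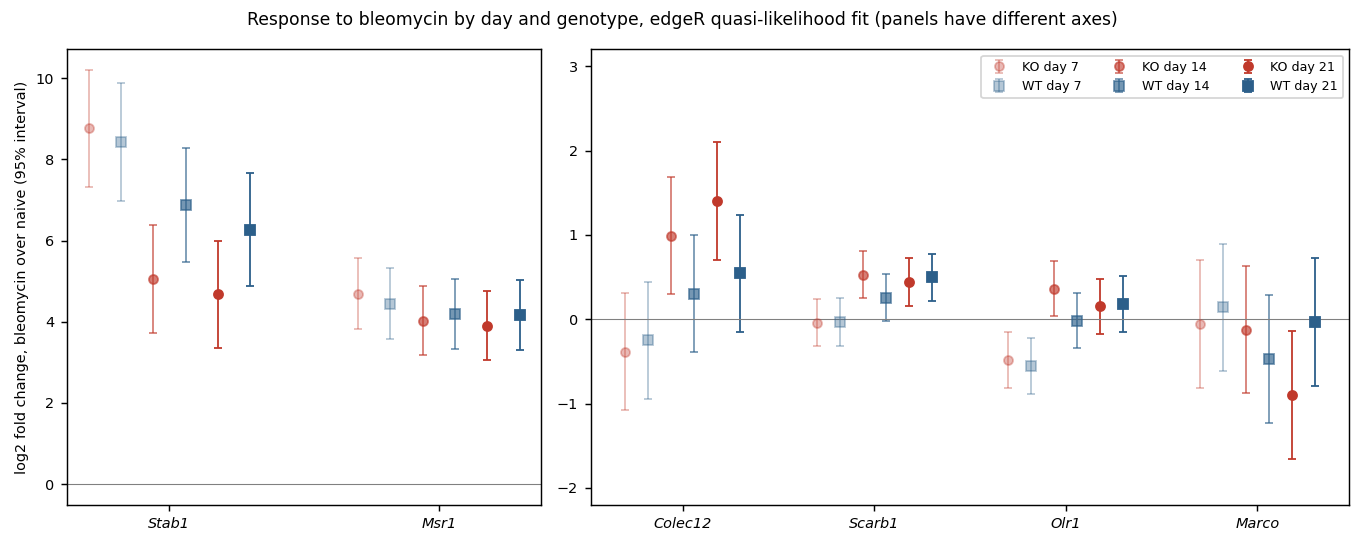
Log2 fold change of bleomycin over naive mice with 95% intervals for 6 genes, KO as red circles and WT as blue squares, paler for earlier days; the left panel has a wider axis than the right. Stab1 lies at 8.78 (KO) and 8.43 (WT) at day 7 and lower on the later days, Msr1 between 3.90 and 4.69, and the intervals of Marco include 0 in all but KO day 21.

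The lipoprotein receptors moved less: Scarb1 rose on the later days, and Olr1 fell at day 7. Scarb1 (ENSMUSG00000037936.15, chr5:125277087-125341094, minus strand), which exchanges cholesterol with high-density lipoprotein, averaged 224 ± 15.4, 218 ± 42.3, 324 ± 21.8 and 305 ± 62.3 CPM in KO mice from naive to day 21. In WT mice the averages were 216 ± 14.1, 211 ± 5.65, 258 ± 28.3 and 305 ± 20.4 CPM. It rose at days 14 and 21 in KO mice by 0.53 (SE 0.14, adjusted p = 0.00957) and 0.44 (SE 0.14, 0.0232) on the log2 scale, and at day 21 in WT mice by 0.50 (SE 0.14, 0.00779). All 3 KO mice of day 14 and all 3 WT mice of day 21 were above their naive mice, while 1 KO mouse of day 21 (233 CPM) was not. The KO call was lost at day 14 without KO naive mouse 2 or KO day 14 mouse 1 (adjusted p 0.0513 to 0.0536), and at day 21 without KO naive mouse 2 or 3 or KO day 21 mouse 2 or 3 (0.0623 to 0.129).

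Olr1 (ENSMUSG00000030162.14, chr6:129485244-129507165, minus strand) was called lower at day 7, as none of the other 7 tested genes was on any day against naive mice. KO mice had 313, 324 and 305 CPM when naive, 174, 239 and 260 at day 7, 429, 375 and 406 at day 14, and 393, 250 and 402 at day 21. WT mice had 270, 350 and 314 CPM when naive, 178, 211 and 246 at day 7, 322, 314 and 289 at day 14, and 352, 359 and 349 at day 21. Day 7 mice lay below the naive mice of their genotype without overlap. The fall at day 7 was -0.48 (SE 0.16, adjusted p = 0.0224) in KO mice and -0.56 (SE 0.16, 0.00949) in WT mice on the log2 scale. It was not called without KO naive mouse 1 or 2 or KO day 7 mouse 1 (adjusted p 0.0506 to 0.142), nor without WT naive mouse 2 or WT day 7 mouse 1 (0.0542 to 0.0546). The share of counts from the ribosomal RNA gene Rn45s was lowest of all mice in WT naive mouse 2 (0.743%). In WT naive, WT day 7 and KO day 7 mice Olr1 was lowest in the mouse with the highest share (5.996%, 8.19% and 4.746%), but not in KO naive mice. The part of this share in the Olr1 values was not tested.

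Cd5l (ENSMUSG00000015854.7, chr3:87357881-87371073, plus strand) had 0 counts in all 6 naive mice. After bleomycin KO mice had 2.08, 2.48 and 1.19 CPM at day 7, 10.4, 1.84 and 0.239 at day 14, and 0.271, 82.9 and 6.54 at day 21. WT mice had 1.65, 1.22 and 0.442 CPM at day 7, 5.77, 3.41 and 5.59 at day 14, and 9.76, 4.68 and 8.64 at day 21. Counts were present in all 18 bleomycin mice, and KO day 21 mouse 2 had more of them (2713) than the other 17 together (2134). Against a floor of 3 counts over the 3 naive mice, Cd5l was at least 82.4-fold, 155-fold and 1170-fold higher on the 3 days in KO mice and at least 40.0-fold, 184-fold and 284-fold higher in WT mice. Bounds and ratios of this kind cover counting error only. The KO bound was 149-fold at day 21 without KO day 21 mouse 2 and 42.2-fold at day 14 without KO day 14 mouse 1. The edgeR adjusted p was 0.0244, 0.0172 and 0.00145 in KO mice and 0.0620, 0.00939 and 0.00536 in WT mice. The KO call of day 7 was lost without any 1 KO naive mouse or KO day 7 mouse 2 (0.0511 to 0.0648), and that of day 14 without any 1 KO naive mouse or KO day 14 mouse 1 (0.0545 to 0.120). With only the compared groups in the fit the KO day 21 adjusted p was 0.0878, and limma-voom called Cd5l on no day (0.270 to 0.501 where edgeR did).

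Folr2 (ENSMUSG00000032725.10, chr7:101839988-101857194, minus strand), which binds folate, had 2 counts in the 3 KO naive mice and 1 in the 3 WT naive mice. Folr2 in KO mice was at 2.42, 9.10 and 2.59 CPM at day 7, 7.28, 1.602 and 0.718 at day 14, and 0.514, 11.5 and 6.93 at day 21. Folr2 in WT mice was at 0.194, 2.15 and 2.29 CPM at day 7, 4.92, 2.31 and 4.60 at day 14, and 9.69, 9.11 and 5.67 at day 21. All 18 bleomycin mice were above all naive mice, and the WT averages were higher on each later day (1.55 ± 1.17, 3.94 ± 1.421 and 8.15 ± 2.18 CPM). The ratio to naive was 303 (95% counting interval 83.5 to 2510), 183 (50.0 to 1520) and 393 (108 to 3250) in KO mice and 183 (32.4 to 7260), 446.1 (79.7 to 17700) and 902 (161 to 35700) in WT mice. Without mouse 2 of KO day 7, mouse 1 of KO day 14 and mouse 2 of KO day 21 the KO ratios were 161, 72.5 and 243. The edgeR adjusted p lay between 0.000147 and 0.00299, and leaving out any mouse of the comparison ended no call, but limma-voom called none of the 6 (0.0711 to 0.259). Leaving out a mouse is no test of a rise from 1 or 2 naive counts. An antisense gene, Gm10602, overlaps a Folr2 exon in the annotation, and without known strand use in counting reads of the pair cannot be told apart.

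Cd163 and Lyve1, the best known of the markers of interstitial and perivascular macrophages, were close to absent. Cd163 (ENSMUSG00000008845.9, chr6:124304656-124330527, plus strand) had 74 counts in 12 of the 24 mice, of which 36 (0.950 CPM) came from KO day 7 mouse 2, and no count in any WT naive, WT day 7 or KO day 14 mouse. Lyve1 (ENSMUSG00000030787.4, chr7:110850607-110863239, minus strand) had 78 counts in 15 mice, with at most 15 counts (0.390 CPM) in KO day 7 mouse 1. Neither was tested. At day 21 Cd163 was at 0.0548 ± 0.0520 CPM in KO mice and 0.159 ± 0.0184 CPM in WT mice (SD, n = 3 each), from 0, 2 and 4 counts and from 5, 5 and 4 counts.

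Between day 21 and day 7, Stab1 fell and the lipoprotein receptors rose in both genotypes. In KO mice 4 of the 8 genes were higher and 1 lower at day 21 than at day 7, and in WT mice 2 were higher and 1 lower, where 14.9% and 11.6% of tested genes were called. Stab1 fell by 4.10 (SE 0.53, adjusted p = 3.60e-05) in KO mice and by 2.16 (SE 0.49, 0.00588) in WT mice on the log2 scale. Olr1 rose by 0.64 (SE 0.16, 0.00933) in KO mice and 0.74 (SE 0.16, 0.00426) in WT mice, and Scarb1 by 0.48 (SE 0.14, 0.0196) and 0.53 (SE 0.14, 0.0128). Colec12 rose by 1.78 (SE 0.34, 0.00131) in KO mice, or 0.96 without KO day 21 mouse 2, and Cd5l by 3.96 (SE 1.29, 0.0492), or 0.83 and not called without that mouse (adjusted p = 0.656). Among KO mice the calls of Scarb1, Olr1 and Cd5l were each lost without 2 to 4 of their 6 mice (0.0556 to 0.656), and in WT mice that of Scarb1 without WT day 21 mouse 1 (0.0559). With only the compared groups in the fit, 0 genes were called higher in KO mice and 4 in WT mice.

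None of the 8 genes passed the edgeR test between KO and WT mice at any time, though Stab1 was lower in KO mice without overlap at days 14 and 21. In naive mice, at days 7, 14 and 21 and averaged over the 3 days, 0 of 8 were called (of 7 with a value in naive mice), against 0.546%, 0.00792%, 0.135%, 0.095% and 0.507% of all tested genes. At an unadjusted p under 0.05 the counts were 0, 0, 5, 2 and 2 of 8 (of 7 in naive mice), against 1053, 580, 1269, 1236 and 1640 of 12634 genes. DESeq2 and limma-voom also called none of them each time. At day 14 the 3 KO mice were above the 3 WT mice for 4 of the 8 genes (Marco, Scarb1, Olr1 and Colec12) and below them for Stab1, while 7.05% and 8.41% of all tested genes were separated in those directions. At day 21 only Stab1 was separated, lower in KO mice, as 8.24% of genes were. No genotype difference in the response to bleomycin was called in the 7 genes with a value (adjusted p 0.550 or more), against 0.00792%, 0.332% and 0.332% of all genes at days 7, 14 and 21. At an unadjusted p under 0.05 the counts were 0 of these 7 on each day, against 776, 1299 and 1361 genes, and DESeq2 and limma-voom called 0 members. Cd5l had no value in the naive comparison and here, since both naive groups were at 0.

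**Figure D4:**
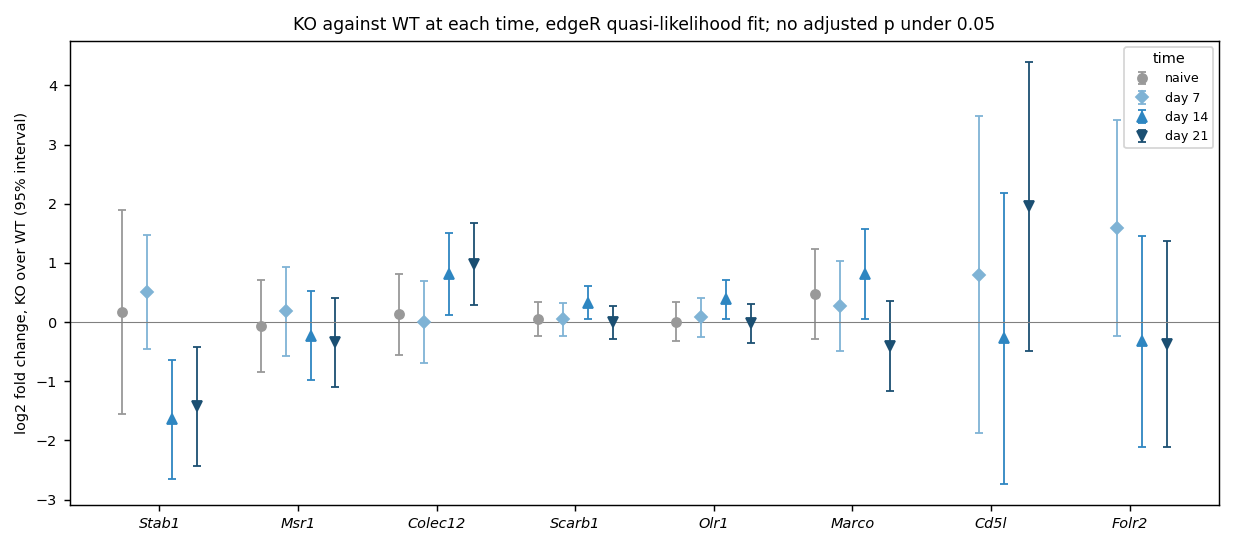
Log2 fold change of KO over WT mice with 95% intervals for 8 genes at each time; Cd5l and Folr2 are not drawn for naive mice, where they had 0 to 2 counts a group. Stab1 lies below 0 at days 14 (-1.64) and 21, Colec12 above it (0.82 and 0.98), and no adjusted p is under 0.05.

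The Stab1 difference had the smallest adjusted p of the 8 genes at day 14. Its 3 KO mice at day 14 had 32.5, 19.4 and 8.05 CPM, against 46.0, 62.9 and 76.9 in WT mice, a log2 fold change of -1.64 (95% interval -2.65 to -0.63, adjusted p = 0.198). Without KO day 14 mouse 1, the KO mouse nearest the WT mice, it was called (adjusted p = 0.0402). At day 21 KO mice had 4.93, 24.1 and 16.9 CPM, against 47.8, 27.3 and 47.8 in WT mice, which was 2.68-fold lower (95% interval of the log2 fold change -2.43 to -0.42, adjusted p = 0.291), and leaving out any mouse made no call. Nt5dc2, which overlaps Stab1, was also lower in KO mice at day 21, and its part in the Stab1 difference was not tested. At day 14 the log2 fold change was 0.82 (0.13 to 1.51) for Colec12, 0.81 (0.05 to 1.57) for Marco, 0.39 (0.06 to 0.72) for Olr1 and 0.33 (0.05 to 0.61) for Scarb1, with adjusted p-values from 0.376 to 0.445. Msr1, at -0.23 (-0.98 to 0.52), overlapped between the genotypes. In naive and day 7 mice the log2 fold changes of these 6 genes lay between -0.07 and 0.52, with all intervals including 0; Folr2, at 1.59 (-0.24 to 3.41) at day 7, was separated there without being called.

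Summed levels of other markers were compared between the genotypes on the same days. At day 14 the summed level of the 19 other interstitial macrophage markers was 1320 to 4450 CPM in KO mice and 5000 to 8430 in WT mice, without overlap. Of the 18 tested, 0 were called by edgeR, with a list median of -1.15 on the log2 scale against 0.004 over all genes. In KO mice 10 were lower at an unadjusted p under 0.05, DESeq2 called 2 lower and limma-voom 1, and edgeR at most 3 when 1 mouse was left out. Over all genes 1269 of 12634 were at an unadjusted p under 0.05 at day 14, in either direction, and 8.41% were separated with KO mice lower. Shares of all genes called by DESeq2, limma-voom or the fits without a mouse are not given here. The 20 resident alveolar macrophage markers summed to 20900 to 31900 CPM in KO mice and 16600 to 23400 in WT mice, which overlapped. This list holds Siglecf itself. Its median was 0.34 against 0.004 over all genes, with 6 higher and 2 lower in KO mice at an unadjusted p under 0.05. EdgeR called 0 higher and 1 lower, DESeq2 1 higher and 1 lower, and limma-voom 0 higher and 1 lower. When 1 mouse was left out edgeR called at most 2 in either direction. Their part in the Stab1, Marco, Olr1, Scarb1 and Colec12 values was not tested. At day 21 the interstitial sums were 1500 to 6380 CPM in KO mice and 4430 to 4810 in WT mice, and the resident sums 21700 to 32100 and 22400 to 24800 CPM. The KO mice with the highest resident sums, day 14 mouse 3 and day 21 mouse 1, had the lowest Stab1, Cd5l, Folr2 and Msr1 of their groups. KO day 21 mouse 2 had the highest Cd5l and Colec12 of all 24 mice, the lowest Olr1 of the day 14 and 21 mice, and the highest recruited monocyte sum (13700 CPM, the other bleomycin mice 4740 to 11900).

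**Figure D5:**
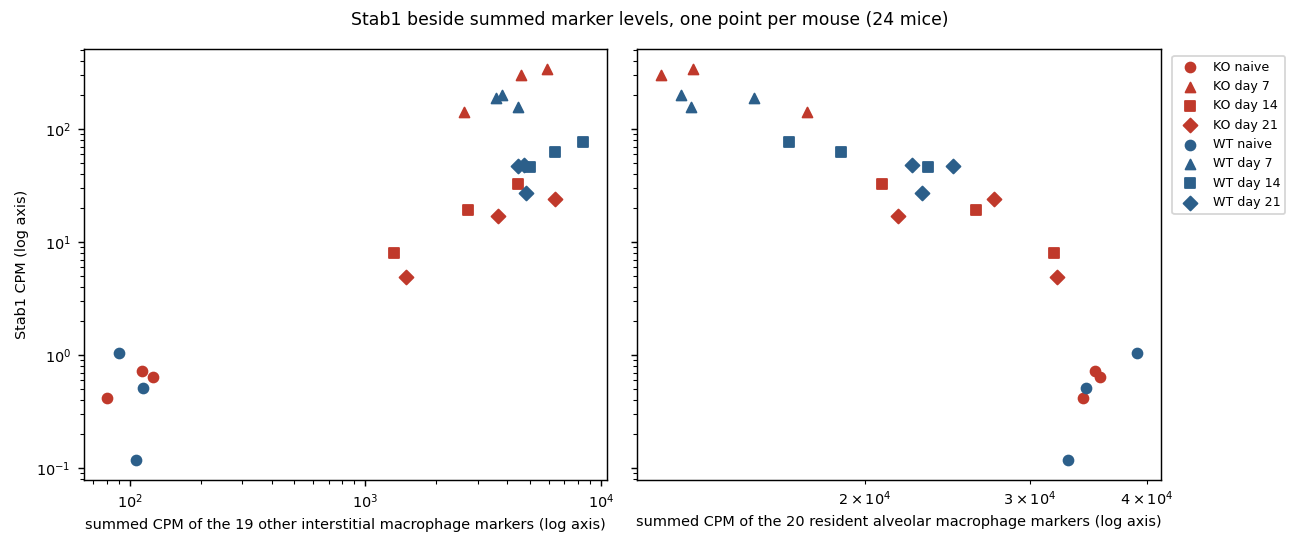
Stab1 CPM (log axis) in each of 24 mice against the summed CPM (log axis) of 19 other interstitial macrophage markers on the left and 20 resident alveolar macrophage markers on the right, KO red and WT blue, shape by time. Day 7 mice have the highest Stab1 (141 to 342 CPM), at interstitial sums of 2620 to 5910 CPM in KO mice and 3610 to 4470 in WT mice, while WT day 14 mice have sums of 5000 to 8430.

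Other interstitial macrophage markers were also higher after bleomycin than in naive mice. Markers near 0 in naive mice, such as F13a1, passed the filter through the bleomycin groups. The counts and medians of this list are therefore descriptions from which nothing is read. Of 18 tested, 14 rose and 1 fell at day 7 in KO mice and likewise in WT mice (0 fell in WT mice with the mouse number as a block, or without WT naive mouse 1 or 2 or WT day 7 mouse 1 or 2), with list medians of 6.09 and 5.07 on the log2 scale against 0.022 over all genes in each. At day 14, 13 rose in KO mice and 15 in WT mice, and at day 21, 15 in each. F13a1, a coagulation factor subunit, averaged 98.7 ± 32.8 CPM at day 7 against 0.179 ± 0.0472 in naive KO mice, and 80.6 ± 11.6 against 0.137 ± 0.0702 in WT mice. C1qa, a subunit of complement C1q, averaged 1150 ± 443 against 2.49 ± 0.772 in KO mice and 946 ± 227 against 2.36 ± 1.35 in WT mice. Timd4 and Vsig4, receptors of resident macrophages of other tissues, reached at most 1.04 and 5.19 CPM; they are named here after their values were seen. The interstitial sums at day 7 were 2620 to 5910 CPM in KO mice and 3610 to 4470 in WT mice. In WT mice the sums of all 3 day 14 mice were above those of all 3 day 7 mice, whereas their Stab1 levels were all lower.

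Of the other scavenger receptors 11 were tested, and they moved in both directions. At day 7, 4 rose and 3 fell in KO mice, and 3 rose and 4 fell in WT mice, with list medians of 0.17 and 0.09. Cxcl16, a membrane-bound chemokine that also binds oxidised lipoproteins, rose by 4.61 (SE 0.33) in KO mice and 4.85 (SE 0.33) in WT mice on the log2 scale. Scarf1, a receptor of apoptotic cells, rose by 5.43 (SE 0.89) and 3.57 (SE 0.83). Cd36, which takes up oxidised lipoproteins and fatty acids, fell by 2.22 (SE 0.35) in KO mice and by 1.99 (SE 0.34) in WT mice, and the mannose receptor gene Mrc1 by 0.66 (SE 0.15) and 0.80 (SE 0.15).

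Genes that act beside these receptors were counted in the same way, where 34.1% of all tested genes were called at day 7 in KO mice and 35.5% in WT mice. Of 18 tested genes of lipoprotein and cholesterol exchange, 4 rose and 8 fell at day 7 in KO mice, and 5 rose and 9 fell in WT mice. The apolipoprotein genes Apoe and Apoc2 rose (4.88 and 6.58 in KO mice, 4.44 and 6.39 in WT mice, log2), and Abcg1, which exports cholesterol to high-density lipoprotein, fell. Of 16 genes of haem and haemoglobin handling, 5 rose and 5 fell at day 7 in KO mice and 5 rose and 7 fell in WT mice. Leaving out 1 mouse, these haem counts went down to 2 rising and 3 falling in KO mice (without KO naive mouse 2 or KO day 7 mouse 1; 3 each without KO naive mouse 1 or 3) and to 3 rising (without WT naive mouse 2 or 3 or WT day 7 mouse 1) and 3 or 4 falling (without WT naive mouse 1 or WT day 7 mouse 3) in WT mice. Hp, which encodes haptoglobin, rose by 4.95 and 4.64, and the biliverdin reductase gene Blvra fell by 0.74 and by 0.42. Of 12 genes of folate handling 4 rose in KO mice, or 2 without KO naive mouse 2, and 3 rose and 2 fell in WT mice, of which 0 fell without WT day 7 mouse 2 and 1 without WT day 7 mouse 3 or any 1 WT naive mouse; these shares are near the background. Of 7 tested genes of hyaluronan binding and turnover 4 rose and 1 fell in KO mice, or 2 rose without KO naive mouse 2 or 3, and 3 rose and 1 fell in WT mice. Of 20 regulators of macrophage identity 5 rose and 5 fell in KO mice (3 fell without KO day 7 mouse 3), and 5 rose and 7 fell in WT mice (8 rose without WT day 7 mouse 1); the transcription factor gene Irf4 rose by 1.99 in KO mice and by 1.91 in WT mice.

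Most resident alveolar macrophage markers fell at day 7, while Marco was not called. Of 20 tested, 16 fell and 0 rose at day 7 in KO mice and in WT mice. At day 14, 5 fell and 1 rose in KO mice and 12 fell and 1 rose in WT mice, and at day 21, 0 fell in KO mice and 9 fell and 2 rose in WT mice. The KO day 14 count was 1 or 2 without any 1 KO naive mouse, KO day 14 mouse 1 or KO day 14 mouse 2. At KO day 21, where edgeR called 0 at the adjusted threshold, 8 were lower and 1 higher at an unadjusted p under 0.05. Over all tested genes 4293 of 12634 were under 0.05 there, in either direction. Calls of lower genes in the list numbered 7 without KO day 21 mouse 1, 5 in limma-voom and 3 in DESeq2. Abcg1 had 1330 ± 289 CPM at day 7 against 3280 ± 129 in naive KO mice, and 1210 ± 145 against 3500 ± 201 in WT mice. Marco had 730 ± 128 CPM at day 7 against 760 ± 273 in naive KO mice, and 606 ± 155 against 549 ± 144 in WT mice.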

How the data were processed

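The authors deposited 1 table of estimated counts per gene (mm10), in which 3.11% to 3.85% of a library's values were not whole. Per the labels' protocols, 200 ng of RNA was sequenced as 150 bp paired reads. Per the submitters' processing notes, bcl2fastq, limma 3.58.1 and DESeq2 1.42.0 were used; aligner, counter and strand setting are not named. Each mouse has 2 runs in the labels and 1 column in the table; 24 columns were not used.

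Counts were rounded, filtered (edgeR filterByExpr, minimum 10) and scaled by TMM. All 24 mice entered 1 edgeR 4.0.16 quasi-likelihood fit (R 4.3.3) with 8 group means and 16 comparisons; every adjusted p is from that fit across 12634 genes (Benjamini-Hochberg within a comparison, 0.05) unless another tool is named. On simulated data (KO against WT at day 14, 12402 genes) it recovered 38.8%, 74.6% and 93.9% of genes planted at 1.5-fold, 2-fold and 4-fold. The alternatives were other scaling, no filter, the mouse number as a block, limma-voom, DESeq2, compared groups alone, and each mouse left out. Same-numbered WT naive and WT day 7 mice deviated together (r 0.598, 0.433 and 0.183, from the data, as the labels do not pair mice), while over all groups 18 of 84 pairs had a correlation over 0.1. Lengths and positions are of GENCODE M21. Promoter windows come from RefSeq tables, with no entry for Msr1, Scarb1 and Lyve1. Members and gene lists were chosen with earlier results of these data known. Named list genes are the 4 of smallest p per list and comparison.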

Additional observations from a re-analysis of the deposited data

How the results depend on the processing

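No followed single-gene result changed direction. Counts of the 8 genes called moved as follows. Under limma-voom 2 were higher in WT day 14 mice, 3 in WT day 21 and 2 in KO day 7 mice against naive, where edgeR called 4, 5 and 4. With the compared groups alone 3 were higher at KO day 21 against naive (edgeR over all groups called 6), and between days 21 and 7, 0 in KO and 4 in WT mice (4 and 2). Leaving out 1 mouse, the count lower ranged from 0 to 1 for KO against WT at day 14, for day 7 against naive in KO and in WT mice, and for KO day 21 against naive, and from 1 to 2 for KO day 21 against day 7. The count higher ranged from 3 to 5 for KO day 14 against naive, from 1 to 4 for KO day 21 against day 7 and from 1 to 2 for the same comparison in WT mice. For 44 single-gene results (those called, and those of the genotype comparisons at days 14 and 21 without overlap), leaving out a mouse kept 226 values on their side of the threshold, weakened 37 and brought 1 past it, and the other alternatives kept 241 and weakened 21; results outside these 44, such as Marco at KO day 21, are not in this tally. Of the counts over gene lists, 177 moved by over 1.5 times under an alternative and 1119 did not.

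With the mouse number as a replicate block, 5 genes were higher at KO day 14 (6 without it) and 3 at KO day 21 against day 7 (4 without it). For WT mice at day 7 against naive, where same-numbered mice deviated together, the block changed no call of the 8 genes. Same-numbered KO and WT mice of day 7 had r 0.379, 0.129 and 0.0758, and WT naive and WT day 14 mice 0.13, 0.182 and 0.027. The labels pair no mice in any comparison. With 3 mice a group, 38.8% of simulated 1.5-fold differences were found, in a setting with more differences than were called here. Absent calls between genotypes therefore do not show equal levels.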

Other observations

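Within groups, some genes deviated from mouse to mouse much as a receptor did. The values are Pearson's r and Spearman's rho over 24 mice of the deviations of log2(CPM + 1) from the group means, given as a description, since the genes of a mouse share a library and its mix of cells. The gene most like each receptor was picked for the highest r among many tested genes, so its r is raised by that choice. The gene most like Stab1 was Pgam1, an enzyme of glycolysis (r 0.96, rho 0.92, and r 0.94 without the 2 mice farthest from the median). For Olr1 it was Angptl4, an inhibitor of lipoprotein lipase (r 0.87), for Colec12 the cation channel gene Trpm4 (r 0.90, 0.74 without the 2 mice), and for Marco Tubgcp2 (r 0.75). Among the receptors themselves Stab1 and Cd5l had r 0.79 and rho 0.63, and Cd5l and Colec12 had r 0.76, or 0.24 without the 2 mice.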
